A study of Rattus norvegicus with 24 samples.

Results

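Lungs of 8 male Sprague-Dawley (SD) rats taken 7 days after a single dose are described here, 4 rats given monocrotaline (MCT) and 4 given PBS buffer, which are the Week 1 libraries among 24 in the whole series. The MCT rats received 50 mg per kg by intraperitoneal injection and the PBS rats received the buffer alone. All were wild type, and each library holds the RNA of 1 rat's lung. The libraries were chosen by their labels (MCT or PBS, 7 days), with no use of any measured value. The lung vessels were flushed before a piece of lung was homogenized, so each library is whole lung with all its cell types, and the poly-A RNA was read and counted per gene. Weeks 2 and 3 of the series, each with 4 MCT rats and 4 PBS rats of their own, serve only for the comparison at the end.

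Monocrotaline is a plant alkaloid that the liver turns into a reactive pyrrole, which binds DNA and protein and injures the endothelium of the lung vessels first. Rats given a single dose develop pulmonary hypertension over the following weeks, and the model works through this chemical injury rather than through a gene defect. Cells that divide pass through DNA replication, the G2 phase and mitosis. Cyclins with their kinases drive these steps, the spindle and the kinetochores pull the chromosomes apart, and cytokinesis splits the cell. DNA damage calls up p53, whose target p21 (Cdkn1a) holds the cyclin-dependent kinases back.

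The libraries held 29207063 to 32835200 assigned counts in the MCT rats. In the PBS rats they held 30641953 and 32642625 in replicates 2 and 4, but 19804731 and 20509197 in replicates 1 and 3. Genes with at least 10 counts numbered 15864 to 15996 in the MCT libraries, against 16033 and 15802 in PBS replicates 2 and 4, 14706 in PBS replicate 1 and 12491 in PBS replicate 3. PBS replicate 3 had no count at all for 526 genes that stood at 5 CPM (counts per 1000000 counts of the library) or more in the other 7 libraries, and PBS replicate 1 had 12 such genes, while the other 6 libraries had 0. The standard deviation over genes of each library's log2 deviation from the median of the 8 libraries was 1.79 in PBS replicate 1 and 2.91 in PBS replicate 3, against 0.48 to 0.60 in the MCT libraries and 0.86 and 0.75 in PBS replicates 2 and 4. These deviations ran with gene length in opposite directions, with a slope of -0.34 log2 units per doubling of length in PBS replicate 1 and 0.74 in PBS replicate 3, and -0.059 to 0.076 in the other 6. Tests are therefore given with all 8 libraries and again without PBS replicates 1 and 3 (written as without the pair), which leaves 2 PBS rats as the only controls. The lung markers were present in every library, with surfactant protein Sftpa1 at 4029 to 6529 CPM in MCT lungs and 5292 to 10580 CPM in PBS lungs, although the club cell marker Scgb1a1 and the alveolar type 1 marker Ager were lowest in PBS replicate 3 (1722 and 404 CPM).

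**Figure D1:**
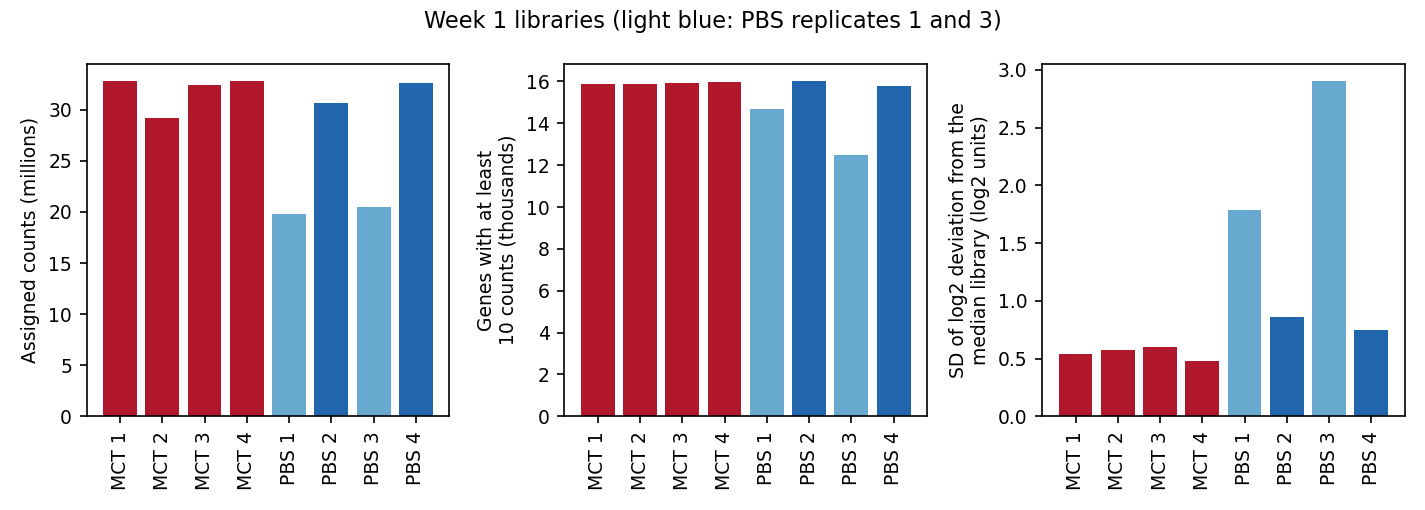
Assigned counts in units of 1000000 (left), genes with at least 10 counts in units of 1000 (middle) and the standard deviation of the log2 deviations from the median library (right) for the 4 MCT libraries (red) and the 4 PBS libraries (blue). PBS replicates 1 and 3, in light blue, have fewer counts, fewer genes and the widest deviations, 1.79 and 2.91 log2 units.

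The question was which genes already differed between MCT and PBS lungs at 7 days. Genes that differed by more than 1.5-fold with an adjusted p under 0.05 in edgeR's quasi-likelihood test were called differentially expressed genes (DEGs). With all 8 libraries, 11 of 15658 genes tested were higher in MCT lungs (0.0703%) and 3 were lower (0.0192%), while scaling by library totals alone gave 13 and 1. At an unadjusted p under 0.05 with the same fold threshold these were 429 genes higher (2.74%) and 314 lower (2.01%). Without PBS replicates 1 and 3, 254 of 16571 genes were higher (1.53%) and 84 lower (0.507%), and the 11 and the 3 were among them. All of the 254 and of the 84 kept their sign with all 8 libraries, which is a comparison of fits that share 6 libraries. In 59 of these genes PBS replicate 3 had no count. Leaving out any 1 of the 4 MCT libraries or of PBS replicates 2 and 4 gave 0 and 0. Leaving out PBS replicate 1 gave 19 and 7, with 13 of the 14 calls kept, and leaving out PBS replicate 3 gave 130 and 34, with all 14 kept.

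Separation of the groups was read beside the test. The 4 MCT values lay above the 4 PBS values for 760 genes (4.85% of those tested) and below them for 286 (1.83%). Of the DEGs without the pair, 198 of the 254 higher genes and 38 of the 84 lower genes were separated in this way over all 8 libraries. The calls themselves rest on 6 of these 8 libraries, so this separation is not independent of them. Symbols were known for 3275 of the 32883 genes of the table, from the study's own table of genes that it had called in these samples, so the share of DEGs among named genes is larger: 174 of 3274 named genes were higher (5.31%) and 69 lower (2.11%) without the pair. The lists that follow hold named genes only, and their direction is not independent evidence. Their counts stand beside these shares. For named genes alone, the shares separated and the shares at an unadjusted p were not computed. In whole lung, a change in the number of cells of a type and a change in RNA per cell, fewer cells or less RNA alike, cannot be told apart.

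The 11 genes called higher with all 8 libraries were genes of mitosis and genes linked to p53. Cyclin A2 (Ccna2), the partner of the cyclin-dependent kinases in the S and G2 phases, stood at 53.5, 74.8, 54.9 and 58.1 CPM in MCT lungs, against 9.38, 10.9, 11.1 and 9.5 CPM in PBS lungs. Its log2 fold change was 2.56 ± 0.22 (SE, adjusted p = 0.017) with all libraries and 2.58 ± 0.22 (SE, adjusted p = 0.0018) without the pair. The 4 PBS lungs, including the pair with few counts, lay close together and far below every MCT lung. Cyclin B1 (Ccnb1), which starts mitosis with Cdk1, was at 40.0, 37.3, 37.5 and 39.6 CPM in MCT lungs, against 12.3, 6.74, 7.72 and 6.45 CPM in PBS lungs, a log2 fold change of 2.22 ± 0.29 (SE, adjusted p = 0.043) and 2.57 ± 0.19 (SE, adjusted p = 0.0018) without the pair. The MCT lungs were close together, and PBS replicate 1 was the highest of the controls.

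Prc1, which bundles the microtubules of the spindle midzone, had the smallest standard error of the 11. It was at 136, 150.4, 125 and 131 CPM in MCT lungs, against 36.6, 36.4, 40.0 and 32.5 CPM in PBS lungs, a log2 fold change of 1.90 ± 0.18 (SE, adjusted p = 0.021) and 2.0 ± 0.17 (SE, adjusted p = 0.0018) without the pair. Nuf2, a subunit of the NDC80 complex that ties kinetochores to microtubules, was at 38.2, 46.9, 30.6 and 37.2 CPM in MCT lungs, against 7.55, 7.80, 5.80 and 3.52 CPM in PBS lungs. For Nuf2 the log2 fold change was 2.63 ± 0.34 (SE, adjusted p = 0.039), and 2.77 ± 0.36 (SE, adjusted p = 0.0077) without the pair. The groups did not overlap for either gene, and for Nuf2 the lowest control was PBS replicate 4. Knstrn, another kinetochore protein, was at 35.2, 27.3, 24.8 and 32.9 CPM in MCT lungs, against 7.14, 5.77, 8.52 and 5.95 CPM in PBS lungs. The chromosome-arm motor Kif22 was at 52.8, 48.4, 33.8 and 46.7 CPM in MCT lungs, against 10.7, 12.3, 12.6 and 10.5 CPM in PBS lungs. The log2 fold change of Knstrn was 2.13 with all libraries and 2.38 without the pair, and that of Kif22 1.98 and 2.02.

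Pbk, a kinase active in mitosis, was at 42.7, 65.5, 43.4 and 48.6 CPM in MCT lungs, against 8.14, 7.06, 12.1 and 5.76 CPM in PBS lungs. Depdc1, a gene of dividing cells, was at 24.5, 30.3, 30.5 and 28.7 CPM in MCT lungs, against 4.19, 4.39, 6.83 and 3.68 CPM in PBS lungs. In both, PBS replicate 3 was the highest control and still lay far below the lowest MCT lung. Their log2 fold changes were 2.60 ± 0.31 (SE, adjusted p = 0.033) for Pbk and 2.58 ± 0.31 (SE, adjusted p = 0.033) for Depdc1, and 2.98 ± 0.26 (SE, adjusted p = 0.0019) and 2.84 ± 0.22 (SE, adjusted p = 0.0018) without the pair.

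The remaining 3 genes are linked to p53. Cdkn1a, which encodes the kinase inhibitor p21, was at 272, 259.6, 228 and 296 CPM in MCT lungs, against 52.5, 61.3, 23.0 and 38.9 CPM in PBS lungs. Its log2 fold change was 2.59 ± 0.32 (SE, adjusted p = 0.033), and 2.42 ± 0.24 (SE, adjusted p = 0.003) without the pair. Aen, a nuclease induced by p53 in apoptosis, was at 73.5, 75.4, 61.6 and 83.1 CPM in MCT lungs, against 19.9, 16.0, 17.3 and 13.7 CPM in PBS lungs. For Aen the log2 fold change was 2.13 ± 0.22 (SE, adjusted p = 0.023), and 2.33 ± 0.21 (SE, adjusted p = 0.0019) without the pair. Gtse1, a microtubule-binding protein of the G2 phase that binds p53 and restrains it, was at 60.1, 74.3, 56.1 and 79.5 CPM in MCT lungs, against 12.5, 13.3, 5.89 and 7.97 CPM in PBS lungs. For Gtse1 the log2 fold change was 2.77 ± 0.32 (SE, adjusted p = 0.033), and 2.68 ± 0.29 (SE, adjusted p = 0.0035) without the pair. For these 3 genes as for the other 8, each of the 4 MCT lungs was above each of the 4 PBS lungs.

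**Figure D2:**
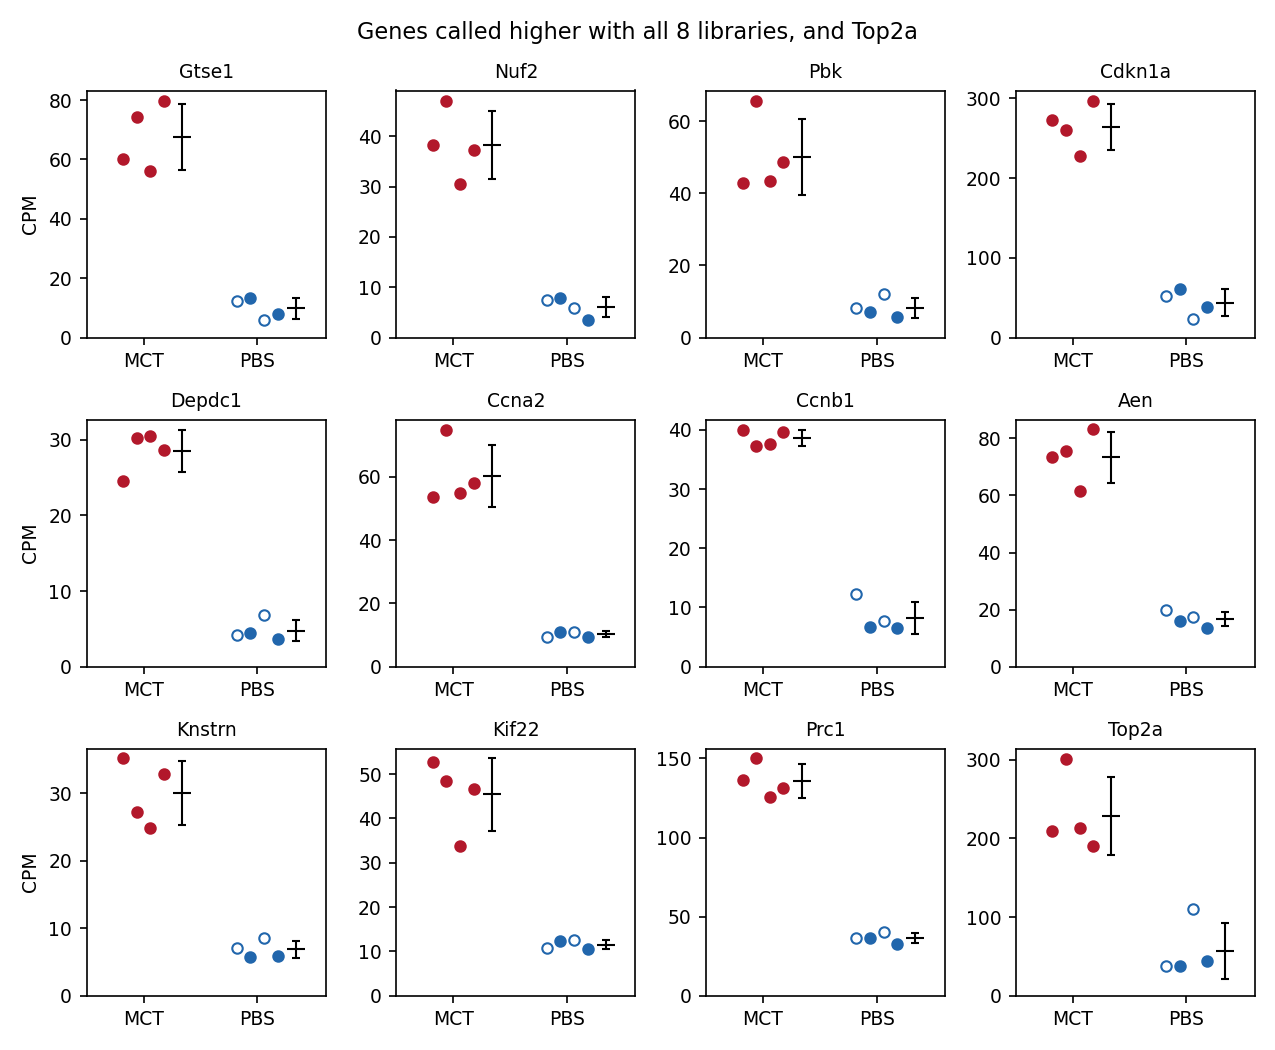
Level in CPM (vertical axes, linear from 0) of the 11 genes called higher with all 8 libraries and of Top2a, in the 4 MCT lungs (red) and the 4 PBS lungs (blue), with the mean and SD of each group beside the points (n = 4 each); open circles are PBS replicates 1 and 3. No gene's groups overlap, and PBS replicate 3 stands above the other controls for Top2a, at 109.8 CPM.

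In the assembly of the counts (Rnor_6.0), Ccnb1 lies at chr2:30783915-30791221 (− strand), Prc1 at chr1:142087208-142108746 (+ strand) and Nuf2 at chr13:87818391-87847263 (− strand). Because mitotic genes moved together, the RefSeq windows around their start sites were read, in the newer assembly GRCr8, for letters known from promoters of the cell cycle: the CCAAT box, and the cell cycle homology region (TTTGAA or TTCGAA), both searched on either strand. The patterns can share a base where they meet. The following 3 windows of 300 bases belong to genes called with all 8 libraries and were picked after their matches were seen. They are written from 5′ to 3′ on the gene's own strand, with the matches in capitals. Ccnb1 is at chr2:33655176-33655475 (− strand, GRCr8), Prc1 at chr1:143659231-143659530 (+ strand, GRCr8) and Nuf2 at chr13:84255549-84255848 (− strand, GRCr8).
Ccnb1: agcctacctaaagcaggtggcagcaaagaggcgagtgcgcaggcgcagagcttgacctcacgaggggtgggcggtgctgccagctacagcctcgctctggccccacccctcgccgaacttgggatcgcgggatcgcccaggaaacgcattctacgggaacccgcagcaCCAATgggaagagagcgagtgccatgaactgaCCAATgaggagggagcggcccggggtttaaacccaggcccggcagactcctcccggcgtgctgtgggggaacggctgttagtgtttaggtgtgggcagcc
Prc1: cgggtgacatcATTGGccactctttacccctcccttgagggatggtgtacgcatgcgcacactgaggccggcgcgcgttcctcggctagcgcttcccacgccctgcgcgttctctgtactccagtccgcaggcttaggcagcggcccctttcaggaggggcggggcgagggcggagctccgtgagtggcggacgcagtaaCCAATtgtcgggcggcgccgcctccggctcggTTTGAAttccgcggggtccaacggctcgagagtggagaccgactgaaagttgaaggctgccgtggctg
Nuf2: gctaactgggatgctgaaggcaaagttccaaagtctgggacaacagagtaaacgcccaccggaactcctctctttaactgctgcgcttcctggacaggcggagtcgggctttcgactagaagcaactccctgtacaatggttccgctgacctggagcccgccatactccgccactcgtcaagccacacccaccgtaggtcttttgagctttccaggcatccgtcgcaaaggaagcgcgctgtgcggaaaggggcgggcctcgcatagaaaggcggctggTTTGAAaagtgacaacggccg
The Ccnb1 window holds 2 CCAAT boxes and 0 cell cycle homology regions, the Prc1 window 2 and 1, and the Nuf2 window 0 and 1. Of the 81 genes of the kinetochore, spindle, cytokinesis, chromosome structure and cyclin lists that were called higher without the pair, 72 had a window. A CCAAT box was present in 46 of the 72 (63.9%) against 37.7% of all 27457 windows, a cell cycle homology region in 49 (68.1%) against 19.5%, and both in 36 (50.0%) against 7.83%. Of the 11 genes called higher with all libraries 9 had a window, with a CCAAT box in 5 (55.6%), a cell cycle homology region in 5 (55.6%) and both in 3 (33.3%). These are matches of letters, described with no test.

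The rise reached all 8 lists of division, among named genes only. As written, the kinetochore, spindle, cytokinesis and chromosome structure lists held 40, 35, 18 and 28 genes. Of these, 24, 28, 14 and 24 had a symbol. The cyclin, replication, nucleotide supply and repair lists held 37, 49, 25 and 44, of which 19, 25, 10 and 22 had one. Members without a symbol were not counted, so the counts do not cover the whole machinery. The 8 lists of kinetochore, mitotic spindle, cytokinesis, chromosome structure, cyclin, replication, nucleotide supply and DNA repair genes held 166 named genes, and 127 of them had 4 MCT values above 4 PBS values, with 1 below. With all 8 libraries 9 were called higher and 0 lower, and 135 were higher at an unadjusted p under 0.05. Without the pair 113 were called higher and 0 lower. Over all genes tested 4.85% lay above and 2.74% were higher at an unadjusted p, shares not computed for named genes alone. Of named genes, 5.31% were called higher without the pair. The counts of each of the 8 lists below stand beside the same shares. The median log2 fold change of the 166 genes was 1.48 with all libraries and 1.72 without the pair. The median of all named genes was -0.13 and 0.015, and that of all genes tested -0.043 and 0.0072. PBS replicate 3 was the highest control here as well: the counts of the 166 genes summed to 6879 to 9401 CPM in MCT lungs, against 2817, 2791, 3824 and 3126 CPM in PBS lungs.

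Kinetochore genes had the largest median of the 8 lists. Of 24 kinetochore and checkpoint genes, 2 were called with all libraries and 19 without the pair, with a median log2 fold change of 1.90 and 2.09. Ndc80, which forms the microtubule-binding complex with Nuf2, was at 25, 40.7, 32.9 and 39.3 CPM in MCT lungs, against 2.01, 6.61, 9.03 and 4.89 CPM in PBS lungs. The checkpoint kinase Ttk was at 30.2, 35.8, 33.5 and 26.9 CPM in MCT lungs, against 2.89, 4.39, 12 and 4.80 CPM in PBS lungs. The motor Cenpe, which carries chromosomes to the spindle equator, was at 47.7, 69.1, 55.2 and 57.9 CPM in MCT lungs, against 10.7, 7.51, 28.2 and 8.69 CPM in PBS lungs. Their groups did not overlap, and all 3 were called without the pair and none with all libraries. The log2 fold changes were 2.61 ± 0.46 (SE, adjusted p = 0.088) and 2.60 ± 0.28 (SE, adjusted p = 0.0036) without the pair for Ndc80. For Ttk they were 2.39 ± 0.46 (SE, adjusted p = 0.12) and 2.80 ± 0.22 (SE, adjusted p = 0.0018), and for Cenpe 2.06 ± 0.44 (SE, adjusted p = 0.18) and 2.84 ± 0.22 (SE, adjusted p = 0.0018). Knl1, the scaffold of the outer kinetochore, had a log2 fold change of 2.88 ± 0.29 (SE, adjusted p = 0.0031) without the pair but 1.86 ± 0.61 (SE, adjusted p = 0.65) with it. For this gene PBS replicate 3 stood at 19.7 CPM against 3.78, 3.42 and 4.33 in the other controls.

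Of 28 genes of the mitotic spindle, 2 were called with all libraries and 25 without the pair, with medians of 1.63 and 1.96. Kif11, the motor that drives the spindle poles apart, was at 69.0, 97.3, 80.8 and 65.9 CPM in MCT lungs, against 11.9, 10.3, 29.9 and 12.7 CPM in PBS lungs. Hmmr, which links spindle microtubules, was at 41.0, 49.1, 41.2 and 36.7 CPM in MCT lungs, against 1.83, 6.09, 9.08 and 7.91 CPM in PBS lungs. Both were separated in all 8 libraries, with log2 fold changes of 2.27 ± 0.38 (SE, adjusted p = 0.08) for Kif11 and 2.75 ± 0.46 (SE, adjusted p = 0.08) for Hmmr, and 2.79 ± 0.23 (SE, adjusted p = 0.0018) and 2.60 ± 0.22 (SE, adjusted p = 0.0019) without the pair. Nusap1, a spindle-associated protein, had its lowest control at 0.140 CPM in PBS replicate 3, against 16.1, 12 and 10.5 CPM in the other PBS lungs and 65.4 to 83.3 CPM in MCT lungs. Its log2 fold change was 2.88 ± 0.90 (SE, adjusted p = 0.59) with all libraries and 2.68 ± 0.20 (SE, adjusted p = 0.0018) without the pair. Kif2c, which takes microtubules apart at the centromere, had 2.32 ± 0.37 (SE, adjusted p = 0.075), and 2.35 ± 0.39 (SE, adjusted p = 0.023) without the pair. The separase Espl1 had 2.16 ± 0.31 (SE, adjusted p = 0.057) and 2.0 ± 0.30 (SE, adjusted p = 0.015).

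Cytokinesis genes rose with them in the fit without the pair, 13 of 14 (1 with all libraries), with medians of 1.84 and 1.95. Anillin (Anln), the scaffold of the contractile ring, was at 46.4, 80.9, 59.0 and 42.5 CPM in MCT lungs, against 3.54, 4.87, 10.9 and 9.28 CPM in PBS lungs. The formin Diaph3 was at 29.3, 45.9, 28.7 and 27.1 CPM in MCT lungs, against 4.01, 3.29, 12.1 and 2.55 CPM in PBS lungs. Shcbp1, found at the midbody, was at 20, 29.2, 24.5 and 18.5 CPM in MCT lungs, against 5.43, 2.06, 6.18 and 2.12 CPM in PBS lungs. Without the pair their log2 fold changes were 3.03 ± 0.38 (SE, adjusted p = 0.0067), 3.50 ± 0.31 (SE, adjusted p = 0.0019) and 3.48 ± 0.29 (SE, adjusted p = 0.0018) in that order, and with it 3.00 ± 0.43 (SE, adjusted p = 0.057), 2.58 ± 0.54 (SE, adjusted p = 0.17) and 2.55 ± 0.47 (SE, adjusted p = 0.11). Racgap1, which with a kinesin forms the centralspindlin complex, was lower in PBS replicates 1, 2 and 4 (2.24, 2.52 and 2.34 CPM) than in PBS replicate 3 (8.56 CPM), and all controls were below the MCT lungs (12.4 to 20.8 CPM). For Racgap1 the log2 fold change was 1.91 ± 0.55 (SE, adjusted p = 0.46), and 2.62 ± 0.33 (SE, adjusted p = 0.0071) without the pair.

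Of 24 genes of chromosome structure and chromatin in dividing cells, 2 were called with all libraries and 17 without the pair (medians 1.68 and 1.91). Top2a, the topoisomerase that untangles replicated chromosomes, was at 209.9, 300.4, 213 and 190.3 CPM in MCT lungs, against 37.3, 37.4, 109.8 and 43.8 CPM in PBS lungs, a log2 fold change of 2.0 ± 0.40 (SE, adjusted p = 0.14) and 2.51 ± 0.23 (SE, adjusted p = 0.0023) without the pair. Mki67, the proliferation marker that coats mitotic chromosomes, was at 152, 333, 204 and 215 CPM in MCT lungs, against 24.5, 36.1, 113 and 47.0 CPM in PBS lungs. For Mki67 the log2 fold change was 2.04 ± 0.48 (SE, adjusted p = 0.24), and 2.46 ± 0.32 (SE, adjusted p = 0.0079) without the pair. In both genes MCT replicate 2 was the highest lung and PBS replicate 3 the highest control, and the groups stayed apart. Esco2, which acetylates cohesin, had the same shape, with 19.1 CPM in PBS replicate 3 against 3.60, 3.74 and 3.18 CPM in the other controls. Its log2 fold change was 2.33 ± 0.65 (SE, adjusted p = 0.42), and 3.43 ± 0.36 (SE, adjusted p = 0.0035) without the pair. Uhrf1, which keeps DNA methylation through replication, had 2.30 ± 0.36 (SE, adjusted p = 0.067) and 2.11 ± 0.31 (SE, adjusted p = 0.012). The kinase Melk had 2.16 ± 0.38 (SE, adjusted p = 0.087) and 2.54 ± 0.27 (SE, adjusted p = 0.0035).

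Among 19 cyclins, cyclin-dependent kinases and their regulators, 2 were called with all libraries and 7 without the pair (medians 1.16 and 1.57). Mybl1, a transcription factor of the Myb family, had the largest change of the 8 lists without the pair. It was at 35.9, 76.5, 59.0 and 41.9 CPM in MCT lungs, against 1.18, 4.84, 14.6 and 4.42 CPM in PBS lungs, a log2 fold change of 3.09 ± 0.68 (SE, adjusted p = 0.19) and 3.54 ± 0.35 (SE, adjusted p = 0.003) without the pair. Cdk1, the kinase of mitosis, was at 89.3, 94.6, 68.8 and 83.5 CPM in MCT lungs, against 28.1, 23.5, 6.92 and 15.6 CPM in PBS lungs. Foxm1, the transcription factor of G2 and mitotic genes, was at 32.7, 46.0, 34.2 and 35.8 CPM in MCT lungs, against 4.54, 14.3, 14.8 and 10.9 CPM in PBS lungs. Both were separated, but neither was called with all libraries. The log2 fold change of Cdk1 was 2.18 ± 0.40 (SE, adjusted p = 0.11), and 2.12 ± 0.24 (SE, adjusted p = 0.0045) without the pair. That of Foxm1 was 1.74 ± 0.38 (SE, adjusted p = 0.19), and 1.58 ± 0.23 (SE, adjusted p = 0.012) without the pair. Cdc25c, the phosphatase that activates Cdk1, did not pass in either fit. It was at 16.2, 15.2, 17.0 and 16.8 CPM in MCT lungs, against 8.67, 8.29, 12.4 and 7.94 CPM in PBS lungs (0.81 ± 0.30 SE, adjusted p = 0.78, and 1.03 ± 0.21 SE, adjusted p = 0.052 without the pair), although its groups did not overlap.

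Replication genes were called only without the pair, 18 of 25 against 0 with all libraries, where 19 had an unadjusted p under 0.05. Their medians were 1.19 and 1.45. Cdc45, a subunit of the replicative helicase, was at 17.2, 30.3, 17.7 and 20.6 CPM in MCT lungs, against 1.24, 7.77, 5.94 and 5.89 CPM in PBS lungs. The log2 fold change was 2.04 ± 0.54 (SE, adjusted p = 0.34), and 1.67 ± 0.30 (SE, adjusted p = 0.032) without the pair. Mcm10, which starts the helicase, had 2.33 ± 0.36 (SE, adjusted p = 0.067) and 2.49 ± 0.31 (SE, adjusted p = 0.0067). The licensing factor Cdt1 had 1.68 ± 0.30 (SE, adjusted p = 0.099) and 1.61 ± 0.29 (SE, adjusted p = 0.032). Pclaf, which binds the clamp PCNA at forks, was at 23.2, 26.3, 24.4 and 21.4 CPM in MCT lungs, against 6.96, 3.39, 2.99 and 1.84 CPM in PBS lungs. For Pclaf the log2 fold change was 2.65 ± 0.45 (SE, adjusted p = 0.08), and 3.21 ± 0.31 (SE, adjusted p = 0.0027) without the pair. For all 4 the MCT lungs lay above every control.

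In nucleotide supply 4 of 10 genes were called without the pair and 0 with it (5 at an unadjusted p under 0.05), with medians of 1.05 and 0.94. These were the subunits of ribonucleotide reductase Rrm1 and Rrm2, thymidine kinase Tk1 and thymidylate synthase Tyms. Rrm2 was at 38.0, 72.5, 31.9 and 34.9 CPM in MCT lungs, against 6.61, 4.22, 25.6 and 4.02 CPM in PBS lungs. For Rrm2 the log2 fold change was 2.14 ± 0.65 (SE, adjusted p = 0.53), and 3.44 ± 0.40 (SE, adjusted p = 0.0047) without the pair. Its levels may share reads with other copies in the genome, since the treatment of reads with several alignments is not stated. Tyms overlapped between the groups, with 56.4 CPM in PBS replicate 3, 7.32, 5.77 and 12.1 CPM in the other controls and 31.8 to 56.5 CPM in MCT lungs. Its log2 fold change was 1.12 ± 0.69 (SE, adjusted p = 1), and 2.33 ± 0.36 (SE, adjusted p = 0.015) without the pair. Tk1 (1.77 ± 0.31 SE, adjusted p = 0.088, and 2.0 ± 0.31 SE, adjusted p = 0.015 without the pair) and Rrm1 (1.11 ± 0.29 SE, adjusted p = 0.34 and 1.39 ± 0.24 SE, adjusted p = 0.027) were separated. LOC100359539, which carries no further description in the tables used, was separated too (1.78 ± 0.53 SE, adjusted p = 0.52, and 2.99 ± 0.37 SE, adjusted p = 0.0065 without the pair).

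Of 22 genes that repair crosslinks and double-strand breaks, 10 were called higher without the pair and 0 with it, where 13 were higher and 2 lower at an unadjusted p under 0.05. Brca1, central to repair by recombination, was at 23.7, 37.4, 30.8 and 26.2 CPM in MCT lungs, against 2.01, 5.87, 8.52 and 11.5 CPM in PBS lungs. For Brca1 the log2 fold change was 2.08 ± 0.50 (SE, adjusted p = 0.25), and 1.78 ± 0.32 (SE, adjusted p = 0.032) without the pair. Rad18, a ligase that marks PCNA at stalled forks, was at 22.3, 34.9, 34.3 and 26.9 CPM in MCT lungs, against 6.25, 9.35, 11.1 and 8.04 CPM in PBS lungs. For Rad18 the log2 fold change was 1.77 ± 0.31 (SE, adjusted p = 0.084), and 1.78 ± 0.25 (SE, adjusted p = 0.01) without the pair. Both were separated over the 8 libraries.

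The p53 targets formed a list of 16 named genes, with 2 called higher with all libraries, 6 without the pair and 0 lower in either fit. The median log2 fold change was 0.90, and 1.14 without the pair. Of named genes, 5.31% were called higher and 2.11% lower without the pair. Over all genes tested, 2.74% were higher and 2.01% lower at an unadjusted p with all libraries. The counts of the amino acid and heat-shock lists below stand beside the same shares. Beside Cdkn1a and Aen, Ccng1, a cyclin induced by p53, was at 413, 467, 580.3 and 440.4 CPM in MCT lungs, against 116, 92.6, 276 and 158 CPM in PBS lungs. Mdm2, the ligase that degrades p53, was at 148, 185, 163 and 184 CPM in MCT lungs, against 45.0, 65.4, 84.8 and 64.0 CPM in PBS lungs. The zinc finger gene Zmat3 was at 10.2, 15.4, 16.1 and 12.9 CPM in MCT lungs, against 4.25, 2.77, 4.77 and 5.20 CPM in PBS lungs. All 3 were separated, with log2 fold changes without the pair of 1.94 ± 0.26 (SE, adjusted p = 0.0088) for Ccng1, 1.42 ± 0.17 (SE, adjusted p = 0.0052) for Mdm2 and 1.79 ± 0.35 (SE, adjusted p = 0.043) for Zmat3. With all libraries these were 1.57 ± 0.35 (SE, adjusted p = 0.2), 1.39 ± 0.23 (SE, adjusted p = 0.08) and 1.68 ± 0.37 (SE, adjusted p = 0.2). The sixth was Rps27l, whose groups overlapped (0.75 with all libraries and 1.35 without the pair) and which was chosen here after its values were seen.

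Of 11 genes of amino acid supply and the ATF4 response, 2 were called without the pair and 0 with it, where 8 were higher at an unadjusted p under 0.05. Asparagine synthetase (Asns) was at 56.1, 71.2, 59.2 and 58.6 CPM in MCT lungs, against 23.2, 25.9, 29.5 and 36.0 CPM in PBS lungs (1.10 ± 0.22 SE, adjusted p = 0.14, and 1.00 ± 0.20 SE, adjusted p = 0.047 without the pair). Mthfd2, a mitochondrial enzyme of one-carbon metabolism, had 1.41 ± 0.43 (SE, adjusted p = 0.53), and 1.58 ± 0.26 (SE, adjusted p = 0.02) without the pair. Of 8 immediate-early and heat-shock genes, which respond to handling, the inducible chaperone Hsp90aa1 was called higher without the pair (1.08 ± 0.21 SE, adjusted p = 0.039). With all libraries its log2 fold change was 1.19 ± 0.24 (SE, adjusted p = 0.14), and 0 of the 8 were called (1 higher and 2 lower at an unadjusted p under 0.05). The list's median was -0.53, and -0.48 without the pair.

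Lower genes were fewer. With all 8 libraries there were 3, separated in every lung. Hpgd, the enzyme that breaks down prostaglandins, was at 17.4, 23.8, 23.9 and 19.3 CPM in MCT lungs, against 114, 71.1, 75.8 and 73.9 CPM in PBS lungs. Its log2 fold change was -1.99 ± 0.25 (SE, adjusted p = 0.033) and -1.76 ± 0.18 (SE, adjusted p = 0.0031) without the pair, and PBS replicate 1 was the highest control. Tmcc2, a membrane protein named in the list of red cell genes, was at 85.8, 93.4, 67.1 and 80.8 CPM in MCT lungs, against 258, 328, 216 and 225 CPM in PBS lungs. For Tmcc2 the log2 fold change was -1.65 ± 0.22 (SE, adjusted p = 0.043), and -1.74 ± 0.20 (SE, adjusted p = 0.0046) without the pair. The third gene has no symbol in the sources used, ENSRNOG00000047457 at chr8:130283542-130309980 (+ strand), and was at 13.1, 27.8, 11.4 and 15.7 CPM in MCT lungs, against 79.6, 85.3, 101 and 142 CPM in PBS lungs. For ENSRNOG00000047457 the log2 fold change was -2.58 ± 0.35 (SE, adjusted p = 0.045), and -2.73 ± 0.35 (SE, adjusted p = 0.0075) without the pair.

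Some genes of arterial endothelium and the Notch pathway were among the largest falls without the pair, where 6 of 19 were called lower and 2 higher. With all libraries 0 were called in either direction, while 6 were lower and 5 higher at an unadjusted p under 0.05. Of named genes, 2.11% were called lower and 5.31% higher without the pair. Over all genes tested, 2.01% were lower and 2.74% higher at an unadjusted p with all libraries, shares not computed for named genes alone. The counts of the endothelial, BMP and angiogenic lists below stand beside the same shares. The arterial list's median was -0.38, and -0.50 without the pair. Dll4, the Notch ligand of arterial and sprouting endothelium, was at 21.8, 56.4, 22.9 and 17.7 CPM in MCT lungs, against 114, 148, 109 and 104 CPM in PBS lungs. The log2 fold change was -2.0 ± 0.39 (SE, adjusted p = 0.13), and -2.07 ± 0.42 (SE, adjusted p = 0.047) without the pair, with MCT replicate 2 the highest of its group. Hey1, a Notch target, was at 5.87, 5.20, 3.31 and 8.03 CPM in MCT lungs, against 10.9, 29.3, 8.70 and 25.6 CPM in PBS lungs. For Hey1 the log2 fold change was -1.73 ± 0.50 (SE, adjusted p = 0.48), and -2.27 ± 0.33 (SE, adjusted p = 0.012) without the pair. Its 2 lowest controls were PBS replicates 1 and 3, close to the highest MCT lung. Ephrin B2 (Efnb2), a mark of arteries, was at 126, 149.6, 113 and 117 CPM in MCT lungs, against 248, 427, 281 and 412 CPM in PBS lungs. For Efnb2 the log2 fold change was -1.44 ± 0.24 (SE, adjusted p = 0.082), and -1.71 ± 0.16 (SE, adjusted p = 0.0023) without the pair. Sema3g, a semaphorin of arterial endothelium, was at 98.9, 141, 68.7 and 84.0 CPM in MCT lungs, against 271, 371, 316 and 316 CPM in PBS lungs. For Sema3g the log2 fold change was -1.70 ± 0.26 (SE, adjusted p = 0.067), and -1.79 ± 0.26 (SE, adjusted p = 0.012) without the pair. Every MCT lung lay below every PBS lung for these 4 genes, and above every PBS lung for 4 others of the 19 (Vegfc, Epha2, Hey2 and Dll1). Hey2, a Notch target like Hey1, was at 13.6, 19.5, 12.7 and 13.1 CPM in MCT lungs, against 5.19, 9.42, 3.93 and 7.82 CPM in PBS lungs. For Hey2 the log2 fold change was 1.16 ± 0.39 (SE, adjusted p = 0.69), and 0.79 ± 0.26 (SE, adjusted p = 0.2) without the pair, with no call in either fit. Dll1, a Notch ligand chosen after its values were seen, had 0.83, and 0.59 without the pair, also with no call. The other 2 called lower, Sox7 and Sox17, are transcription factors of endothelium with overlapping groups, chosen here after their values were seen, with log2 fold changes of -0.49 and -0.60 with all libraries, and -0.81 and -1.01 without the pair. The 2 called higher were Vegfc and Epha2, a receptor of the ephrins also chosen after its values were seen (1.06 with all libraries and 0.75 without the pair).

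Of 19 genes of the endothelium as a whole, 4 were called lower without the pair and 0 with it, where 6 were lower and 1 higher at an unadjusted p under 0.05. The median was -0.25, and -0.56 without the pair. Tmem100, a membrane protein of the BMP9 and ALK1 pathway, was at 211, 178, 154 and 178 CPM in MCT lungs, against 475, 665, 398 and 564 CPM in PBS lungs. For Tmem100 the log2 fold change was -1.54 ± 0.23 (SE, adjusted p = 0.062), and -1.75 ± 0.17 (SE, adjusted p = 0.003) without the pair. The apelin receptor Aplnr was at 153, 102, 114 and 124 CPM in MCT lungs, against 239, 296, 219 and 248 CPM in PBS lungs (-1.02 ± 0.21 SE, adjusted p = 0.15, and -1.12 ± 0.20 SE, adjusted p = 0.03 without the pair). Clec14a, a C-type lectin of vessels, was at 260.0, 293, 248 and 243 CPM in MCT lungs, against 609, 484, 366 and 613 CPM in PBS lungs (-0.99 ± 0.23 SE, adjusted p = 0.21, and -1.05 ± 0.16 SE, adjusted p = 0.015 without the pair). These 3 were separated, while the fourth call was Sox17. Tek, the angiopoietin receptor, was separated but not called (-0.94 ± 0.26 SE, adjusted p = 0.39, and -0.92 ± 0.20 SE, adjusted p = 0.056). The summed level of the list was 7072 to 8531 CPM in MCT lungs and 7223, 9597, 13880 and 11660 CPM in PBS lungs, so that the groups overlapped through PBS replicate 1 (exact permutation test, two-sided, p = 0.11).

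Of 15 BMP and TGF-beta genes, 2 were called lower without the pair, Tmem100 and the inhibitory Smad6 (-1.13 ± 0.16 SE, adjusted p = 0.011, against -0.65 ± 0.47 SE, adjusted p = 1 with all libraries), and 0 with it (1 lower at an unadjusted p under 0.05). The groups overlapped for Smad6, through PBS replicate 3 at 43.0 CPM. Bmpr2, the receptor mutated in familial pulmonary hypertension, was at 161, 382, 311 and 196 CPM in MCT lungs, against 106, 104, 1106 and 425 CPM in PBS lungs. PBS replicate 3 was the highest of all lungs and PBS replicates 1 and 2 the lowest, and the log2 fold change was -0.73 ± 0.73 (SE, adjusted p = 1) with all libraries, -0.0019 ± 0.52 (SE, adjusted p = 1) without the pair and 0.30 without PBS replicate 3 alone, with no call in any of them. Among 22 angiogenic factors and receptors without the pair, Vegfc, a growth factor of lymphatic vessels, and Sema3d, a semaphorin, were called higher and Aplnr and Sema3g lower. Vegfc was at 58.9, 48.8, 68.2 and 63.9 CPM in MCT lungs, against 30.2, 26.7, 16.2 and 29.6 CPM in PBS lungs (1.22 ± 0.26 SE, adjusted p = 0.18, and 1.11 ± 0.20 SE, adjusted p = 0.03). Sema3d had 1.23 ± 0.42 (SE, adjusted p = 0.71) and 1.40 ± 0.21 (SE, adjusted p = 0.015).

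The other large falls came from several families. Acer2, a ceramidase of the Golgi, was at 140.1, 118, 87.4 and 162 CPM in MCT lungs, against 332, 810.1, 1508 and 716 CPM in PBS lungs. For Acer2 the log2 fold change was -2.73 ± 0.45 (SE, adjusted p = 0.08), and -2.56 ± 0.24 (SE, adjusted p = 0.0024) without the pair. The incretin receptor Glp1r was at 46.4, 27.0, 28.9 and 44.4 CPM in MCT lungs, against 124, 212, 122 and 171 CPM in PBS lungs. For Glp1r the log2 fold change was -2.10 ± 0.29 (SE, adjusted p = 0.052), and -2.36 ± 0.26 (SE, adjusted p = 0.004) without the pair. The potassium channel Kcnk2 was at 8.10, 8.30, 5.94 and 7.05 CPM in MCT lungs, against 20.4, 29.2, 44.8 and 27.1 CPM in PBS lungs. For Kcnk2 the log2 fold change was -2.05 ± 0.33 (SE, adjusted p = 0.073), and -1.92 ± 0.22 (SE, adjusted p = 0.0045) without the pair. In each the lowest control was far above the highest MCT lung, and the controls varied most for Acer2, with its lowest control in PBS replicate 1 and its highest in PBS replicate 3. Lemd2, an inner nuclear membrane protein, had 0.186 to 0.757 CPM in MCT lungs and 3.72 to 18.1 CPM in PBS lungs. The cAMP phosphodiesterase Pde4c had 3.16 to 6.44 CPM in MCT lungs and 15.2 to 36.2 CPM in PBS lungs, and Nxpe5l1 0.596 to 1.21 CPM in MCT lungs and 1.53 to 15.2 CPM in PBS lungs. The log2 fold change was -4.48 ± 0.75 (SE, adjusted p = 0.08) for Lemd2, and -4.22 ± 0.54 (SE, adjusted p = 0.0076) without the pair. It was -2.42 ± 0.43 (SE, adjusted p = 0.088) and -2.65 ± 0.38 (SE, adjusted p = 0.012) for Pde4c, and -3.04 ± 0.79 (SE, adjusted p = 0.32) and -2.68 ± 0.49 (SE, adjusted p = 0.033) for Nxpe5l1. The last 4 of the largest falls by the rule, each with all libraries and then without the pair, were Rimbp2 (-1.87 ± 0.46 SE, adjusted p = 0.27, and -2.26 ± 0.32 SE, adjusted p = 0.011) and the scavenging chemokine receptor Ackr4 (-1.86 ± 0.37 SE, adjusted p = 0.14, and -2.12 ± 0.28 SE, adjusted p = 0.0088). They ended with Rasgef1a (-2.01 ± 0.33 SE, adjusted p = 0.076, and -2.01 ± 0.24 SE, adjusted p = 0.0061) and the sulfotransferase Gal3st3 (-1.40 ± 0.40 SE, adjusted p = 0.45, and -1.80 ± 0.23 SE, adjusted p = 0.007). None of these 10 was called with all libraries.

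**Figure D3:**
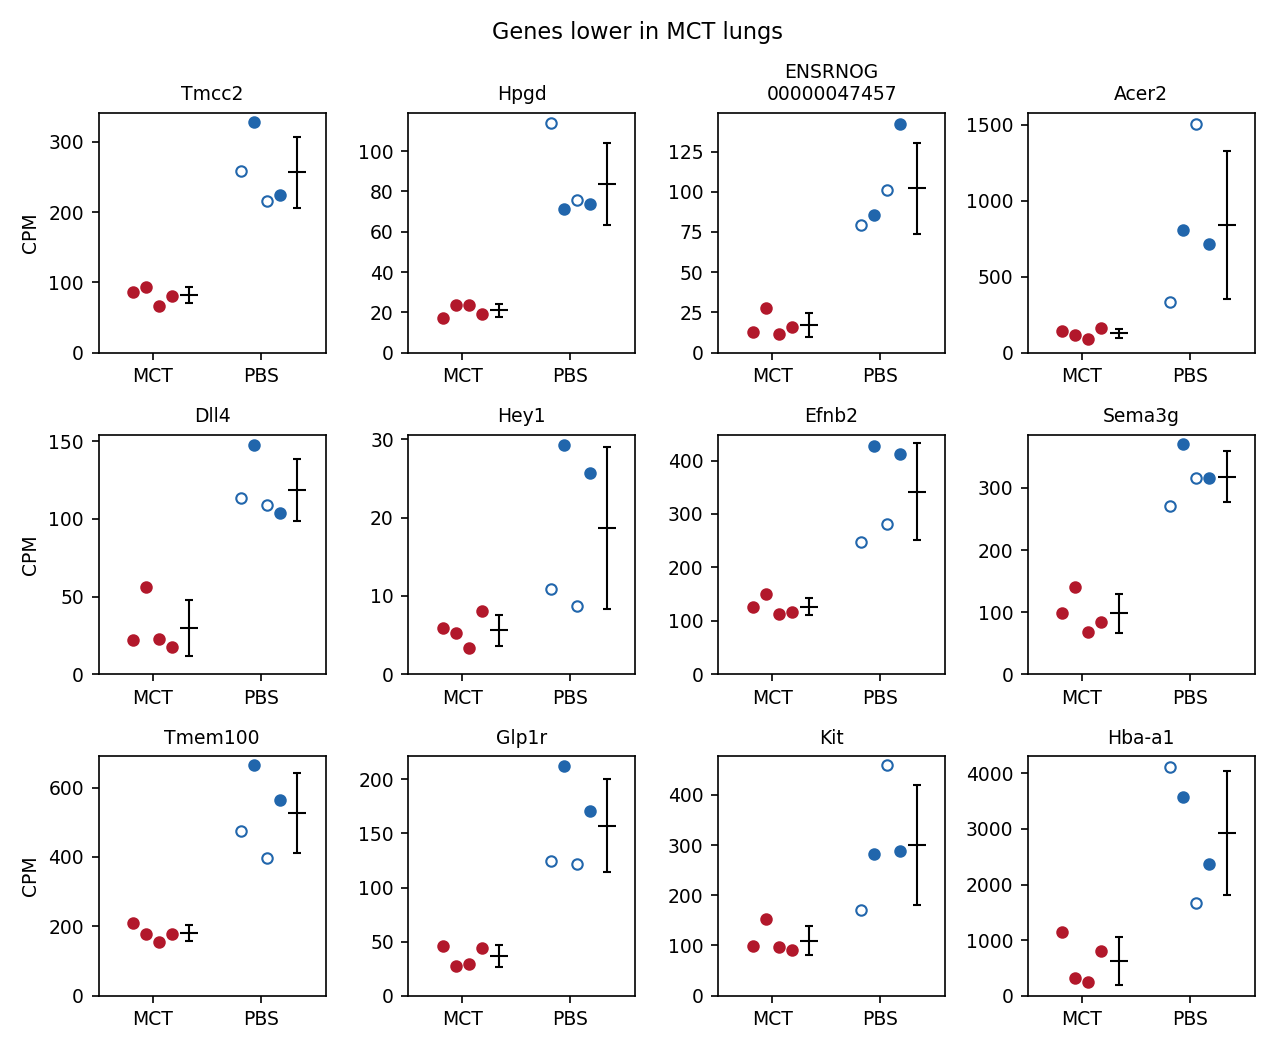
Level in CPM (vertical axes, linear from 0) of 12 genes that were lower in MCT lungs (red) than in PBS lungs (blue), with the mean and SD of each group beside the points (n = 4 each); open circles are PBS replicates 1 and 3. The groups do not overlap for any of the 12, while the open circles spread to both sides of the filled ones, as for Acer2 at 332 and 1508 CPM.

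Genes of red cells had lower values in MCT lungs, although all lungs had been flushed. Of 20 named genes of red cells and their precursors, 15 had 4 MCT values below 4 PBS values, 17 were lower at an unadjusted p under 0.05, 1 (Tmcc2) was called with all libraries and 3 (Tmcc2, Tal1 and Hba-a3) without the pair. Over all genes tested 1.83% were below and 2.01% lower at an unadjusted p, shares not computed for named genes alone. Of named genes, 2.11% were called lower without the pair. Tal1 and Hba-a3 had overlapping groups and were chosen after their values were seen. The median log2 fold change was -2.15, and -1.59 without the pair. The globin gene Hba-a1 was at 1152, 314, 242 and 808 CPM in MCT lungs, against 4116, 3573, 1666 and 2360 CPM in PBS lungs. For Hba-a1 the log2 fold change was -2.22 ± 0.55 (SE, adjusted p = 0.27), and -2.20 ± 0.56 (SE, adjusted p = 0.1) without the pair. The beta globin gene Hbb was at 702, 179, 219 and 421 CPM in MCT lungs, against 4785, 1365, 1885 and 1662 CPM in PBS lungs. For Hbb the log2 fold change was -2.67 ± 0.58 (SE, adjusted p = 0.19), and -1.96 ± 0.48 (SE, adjusted p = 0.093) without the pair. Alas2, the first enzyme of haem synthesis in red cells, was at 21.1, 4.08, 6.87 and 16.1 CPM in MCT lungs, against 42.6, 52.6, 109 and 45.2 CPM in PBS lungs. For Alas2 the log2 fold change was -2.37 ± 0.56 (SE, adjusted p = 0.23), and -1.98 ± 0.55 (SE, adjusted p = 0.13) without the pair. None of these 3 was called, and globin copies are so alike that reads may have been split between them. Haemoglobin genes took 0.309%, 0.0892%, 0.0783% and 0.220% of all counts in MCT lungs, against 1.23%, 0.830%, 0.574% and 0.687% in PBS lungs. The groups did not overlap, and the exact permutation test gave p = 0.029, the smallest that 4 against 4 allows (two-sided, 0.15 after Benjamini-Hochberg adjustment over 21 values). The haemoglobin genes counted were those in the study's own table of calls from these samples, so this p-value is not independent evidence. Leaving out the pair left 0.830% and 0.687% in the PBS lungs. How much blood stayed in each lung was not measured, and its part in these values was not tested.

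The summed markers of mast cells and of alveolar type 1 cells also did not overlap, but in the mast cell list the genes did not move together. The 6 mast cell genes summed to 210.2, 233.6, 201.3 and 203.7 CPM in MCT lungs, against 335.1, 517.8, 520.5 and 448.0 CPM in PBS lungs (exact permutation test, two-sided, p = 0.029, 0.15 adjusted). The receptor Kit was the highest of the 6 in every library, at 99.2, 153, 96.4 and 90.6 CPM in MCT lungs, against 170.1, 283, 459 and 288 CPM in PBS lungs (-1.45 ± 0.33 SE, adjusted p = 0.2, and -1.36 ± 0.21 SE, adjusted p = 0.018 without the pair), while Gata2, a transcription factor of mast cells, blood precursors and endothelium, overlapped (-0.90 ± 0.49 SE, adjusted p = 1, and -1.44 ± 0.20 SE, adjusted p = 0.011 without the pair). The other 4 genes, among them the mast cell protease Cpa3 and the histamine-forming enzyme Hdc, were not called in either fit, and their groups overlapped. Their log2 fold changes without the pair were 1.45 for Cpa3, 0.12 for Slc18a2, 0.093 for Hdc and 0.86 for Fcer1a, all above 0, while with all libraries they were 0.54, 0.094, -0.42 and -1.15. These 4 were chosen after their values were seen, and the list's median was -0.66 with all libraries and 0.11 without the pair. The 6 alveolar type 1 genes summed to 5406, 5600, 5376 and 4970 CPM in MCT lungs and to 5853, 6523, 6477 and 7378 CPM in PBS lungs (p = 0.029, 0.15 adjusted, exact permutation test). None of the 6 was called in either fit, and the list's median was -0.41, and -0.38 without the pair. The red cell sum gave the same p, at 3282, 1103, 999 and 2340 CPM in MCT lungs against 14880, 8847, 6278 and 7523 CPM in PBS lungs, and the other 14 cell type sums gave p from 0.11 to 0.89. All these sums hold only named genes, which the study had called in these samples, so their p-values are not independent evidence.

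Genes of macrophages and inflammation were mostly at higher values in MCT lungs, with few calls. Of 24 macrophage and monocyte genes, 0 were called with all libraries (6 higher at an unadjusted p under 0.05) and 2 higher without the pair, with medians of 0.63 and 0.76. In 7 of the 24, and in 10 of 19 genes of inflammation, the 4 MCT values lay above the 4 PBS values, against 4.85% of all genes tested. That share was not computed for named genes alone, so the size of the excess cannot be read from it. The calls without the pair, 2 in each list, stand beside the 5.31% of named genes. Chi3l1, a chitinase-like protein, was at 251, 193, 266 and 322 CPM in MCT lungs, against 117, 77.0, 77.4 and 80.7 CPM in PBS lungs. For Chi3l1 the log2 fold change was 1.55 ± 0.24 (SE, adjusted p = 0.067), and 1.73 ± 0.23 (SE, adjusted p = 0.0088) without the pair. Its groups were separated, though the summed level of the 24 genes was not, at 2716 to 4101 CPM in MCT lungs and 4281, 2266, 1928 and 2219 CPM in PBS lungs, where PBS replicate 1 was the highest of all. Among the 19 genes of inflammation, whose medians were 0.67 and 0.55, the monocyte chemokine Ccl2 was at 19.2, 11.4, 20.5 and 12.7 CPM in MCT lungs, against 8.97, 3.45, 7.67 and 5.14 CPM in PBS lungs (1.34 ± 0.42 SE, adjusted p = 0.57, and 1.91 ± 0.36 SE, adjusted p = 0.037). The oncostatin M receptor Osmr was at 31.2, 44.5, 44.3 and 36.3 CPM in MCT lungs, against 6.55, 9.48, 25 and 14.6 CPM in PBS lungs. For Osmr the log2 fold change was 1.49 ± 0.41 (SE, adjusted p = 0.42), and 1.71 ± 0.26 (SE, adjusted p = 0.014) without the pair. They were the 2 called without the pair, and 0 were called with it (8 higher at an unadjusted p under 0.05). Of 6 B cell and plasma cell genes, Jchain, the joining chain of secreted antibodies, was the 1 called, and it was called higher without the pair (2.31 ± 0.31 SE, adjusted p = 0.0088) with overlapping groups (0.90 ± 0.58 SE, adjusted p = 1 with all libraries). With all libraries 0 of the 6 were called (2 lower at an unadjusted p under 0.05). The list's median was -0.82, and -0.092 without the pair, and Bank1 and Blk, adaptor and kinase of B cell receptor signalling chosen after their values were seen, were lower in every MCT lung without a call (-1.61 and -1.10 with all libraries, -1.56 and -0.61 without the pair). Of 19 T and NK cell genes, the T cell coreceptor Cd4 was the 1 called without the pair (0.96 ± 0.18 SE, adjusted p = 0.038, against 0.83 ± 0.19 SE, adjusted p = 0.22 with all libraries), with separated groups (52.3 to 64.7 CPM in MCT lungs, 28.0 to 36.0 CPM in PBS lungs). With all libraries 0 of the 19 were called (1 higher and 2 lower at an unadjusted p under 0.05). That list's median was -0.50, and -0.093 without the pair, and the cytotoxic genes Gzma and Prf1, also chosen after their values were seen, had -1.31 and -0.79 with all libraries and -0.82 and -0.63 without the pair.

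Of named genes, 2.11% were called lower and 5.31% higher without the pair. Beside these shares, a single call in a list of 28, 40 or 24 genes is no result about that list. Interferon-stimulated genes gave 0 calls with all libraries and 1 lower without the pair among 28, with medians of -0.40 and -0.13. That gene was Rsad2 (viperin), at 13.7, 10.8, 14.2 and 11.2 CPM in MCT lungs, against 5.60, 24, 158 and 35.3 CPM in PBS lungs. Its groups overlapped, and the log2 fold change was -2.16 ± 0.82 (SE, adjusted p = 0.82) with all libraries and -1.23 ± 0.23 (SE, adjusted p = 0.036) without the pair. Of 40 matrix genes, 0 were called with all libraries (12 higher at an unadjusted p under 0.05), and 1 without the pair, Vcan, which was chosen here after its values were seen (0.46 with all libraries and 1.18 without the pair). Fibronectin (Fn1) was at 1542, 1707, 2433 and 1676 CPM in MCT lungs, against 677, 861, 635 and 952 CPM in PBS lungs, separated but not called (1.24 ± 0.26 SE, adjusted p = 0.17, and 1.04 ± 0.21 SE, adjusted p = 0.053 without the pair). Of 24 genes of xenobiotic metabolism, Fmo2, a flavin monooxygenase abundant in lung, was called lower without the pair, at 76.7, 146, 73.0 and 94.2 CPM in MCT lungs, against 163, 295, 337 and 278 CPM in PBS lungs (-1.46 ± 0.31 SE, adjusted p = 0.19, and -1.54 ± 0.26 SE, adjusted p = 0.025). Of 6 clock genes, Per2 was called lower without the pair (-1.24 ± 0.30 SE, adjusted p = 0.25, and -1.46 ± 0.25 SE, adjusted p = 0.025). With all libraries neither list had a call. In the xenobiotic list 9 of 24 genes had 4 MCT values below 4 PBS values and 1 had them above. At an unadjusted p under 0.05, 8 were lower and 3 higher. Over all genes tested 1.83% lay below and 4.85% above, and 2.01% were lower and 2.74% higher at an unadjusted p. The xenobiotic median was -0.74, and -0.53 without the pair.

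For ribosomal proteins and the respiratory chain the medians changed sign when PBS replicate 1 alone was left out. Of 16 ribosomal protein genes, 0 were called in either fit (3 lower at an unadjusted p under 0.05 with all libraries), but the median log2 fold change was -1.23 with all libraries and -0.062 without the pair. For 8 genes of the respiratory chain it was -1.40 and -0.30. Without PBS replicate 1 alone the medians were 0.29 and 0.064, and without PBS replicate 3 alone -1.57 and -1.78, alternatives chosen after seeing the data. PBS replicate 1 had the highest value of the 8 lungs for 15 of the 16 ribosomal genes and for all 8 respiratory chain genes. The exception was 1 of the 2 identifiers named Rpl8, ENSRNOG00000048456, which was highest in PBS replicate 2 (80.2 CPM, against 42.1 CPM in PBS replicate 1) and had a log2 fold change of -2.59, and -2.85 without the pair, with no call in either fit. It was chosen after its values were seen. Rps21, of the small ribosomal subunit, was at 120.2, 108, 102 and 143 CPM in MCT lungs, against 1148, 105, 27.2 and 144 CPM in PBS lungs. Cox17, a copper chaperone of cytochrome oxidase, was at 17.8, 13.1, 13.7 and 26.4 CPM in MCT lungs, against 198, 32.4, 7.49 and 20.4 CPM in PBS lungs. In both, PBS replicate 1 was far above and PBS replicate 3 below every other lung. The log2 fold change of Rps21 was -1.59 ± 0.94 (SE, adjusted p = 1) with all libraries, -0.045 ± 0.21 (SE, adjusted p = 0.93) without the pair and 0.38 without PBS replicate 1 alone.

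**Figure D4:**
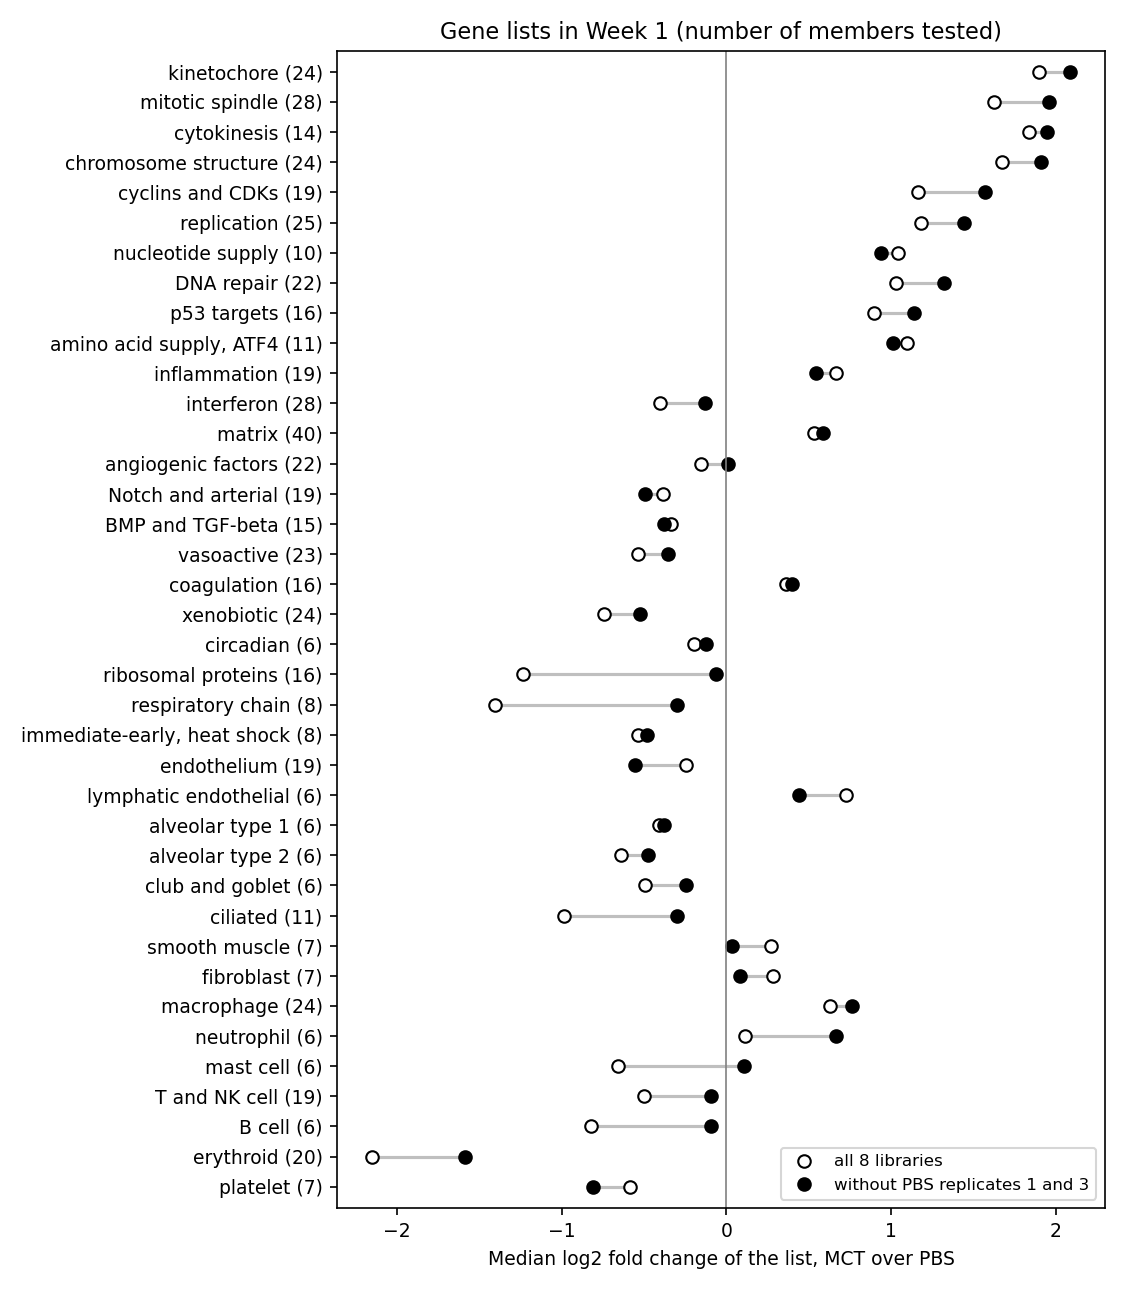
Median log2 fold change, MCT over PBS, of each gene list with at least 6 members tested (number in brackets), with all 8 libraries (open circles) and without PBS replicates 1 and 3 (filled circles). The lists of cell division lie between 0.94 and 2.09 in both, the red cell list lies at -2.15 and -1.59, and the ribosomal protein list moves to -0.062 when the pair is left out, against -1.23 with it.

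A pair of unnamed genes called without the pair had no count in any PBS library. ENSRNOG00000000693, at chr12:48292273-48351084 (Rnor_6.0, + strand), was at 2.68, 4.54, 1.70 and 3.06 CPM in MCT lungs (389 counts in all). Against 3 counts over the 4 PBS libraries, which correspond to 0.0296 CPM, its level was at least 101-fold higher in MCT lungs. ENSRNOG00000033929, at chr11:67395889-67400201 (− strand), was at 0.536, 1.32, 0.867 and 1.04 CPM in MCT lungs (122 counts), at least 31.8-fold higher than the same floor. Both bounds cover counting error only, not the spread between rats. Both were chosen after their values were seen.

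Whether the Week 1 differences were of the same size as those of later weeks was asked of a model with all 24 libraries, by testing each gene's log2 fold change of Week 1 against that of the later week at an adjusted p under 0.05. Between Weeks 1 and 2, edgeR called 0 of 17206 genes higher (0%) and 0 lower (0%), and 0 of 17940 each way without the pair (0% and 0%). At an unadjusted p under 0.05 there were 394 higher and 506 lower, DESeq2 called 11 and 28, and limma-voom 0 and 0. Leaving out PBS replicate 2, 3 or 4 of Week 1 gave 6 and 1, 2 and 2, and 5 and 1. Between Weeks 1 and 3, 432 genes had a higher log2 fold change in Week 1 (2.51%) and 322 a lower one (1.87%). Without the pair these were 2241 (12.5%) and 1845 (10.3%), and with DESeq2's size factors 355 and 422. The counts were 2336 and 2419 without PBS replicate 3, 725 and 597 without PBS replicate 4, 225 and 104 without MCT replicate 2, and 240 and 118 without MCT replicate 3.

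Cell division genes were on the higher side of that difference. The counts of list members stand beside shares over all genes tested of 2.51% higher and 1.87% lower with 24 libraries. Without the pair these shares were 12.5% and 10.3%, and none was computed for named genes alone. Of the 166 genes of the 8 lists, 52 had a higher log2 fold change in Week 1 than in Week 3 and 0 a lower one with 24 libraries, and 123 and 0 without the pair. Their median log2 fold change, each week against its own PBS lungs, was 1.48 in Week 1 (1.72 without the pair), 0.96 in Week 2 and 0.41 in Week 3. Ccna2 had a log2 fold change of 2.56 in Week 1, 1.73 in Week 2 and 0.45 in Week 3, and the difference between Weeks 1 and 3 was 2.10, adjusted p = 0.00065 with 24 libraries and 0.00022 without the pair. Depdc1 had 2.58, 2.01 and -0.15 in the same order, a difference of 2.71, adjusted p = 0.0026 with 24 libraries and 0.00046 without the pair. For Prc1 the values were 1.90, 1.28 and 0.62, with a difference of 1.27, adjusted p = 0.00032 with 24 libraries and 1.4e-05 without the pair. Of 16 p53 targets, 2 were higher and 1 lower than in Week 3 (5 and 4 without the pair). Mdm2 was at 1.39 in Week 1, 0.59 in Week 2 and 0.15 in Week 3 (1.22, adjusted p = 0.0049 with 24 libraries and 0.00042 without the pair). For Cdkn1a the values were 2.59, 1.48 and 1.98 and the difference did not pass (0.60, adjusted p = 0.31 with 24 libraries and 0.26 without the pair).

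Endothelial genes also lay on the higher side. Of 19 endothelial genes, 10 had a higher, that is less negative, log2 fold change in Week 1 with 24 libraries and 15 without the pair, with 0 lower in both. Over all genes tested, named or not, 2.51% were higher with 24 libraries and 12.5% without the pair. Tek had -0.94 in Week 1, -1.85 in Week 2 and -3.50 in Week 3 (2.55, adjusted p = 1.9e-06 with 24 libraries and 5.9e-07 without the pair). Clec14a had -0.99, -1.72 and -2.79 in the same order (1.79, adjusted p = 0.00032 with 24 libraries and 6.6e-05 without the pair). Dll4 was at -2.0, -2.79 and -2.26, with a difference between Weeks 1 and 3 of 0.25, adjusted p = 0.74 with 24 libraries and 0.74 without the pair, which did not pass. Hpgd, called in Week 1 with all libraries, was at -1.99, -2.34 and -3.89 (1.88, adjusted p = 0.0044 with 24 libraries and 0.00095 without the pair).

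**Figure D5:**
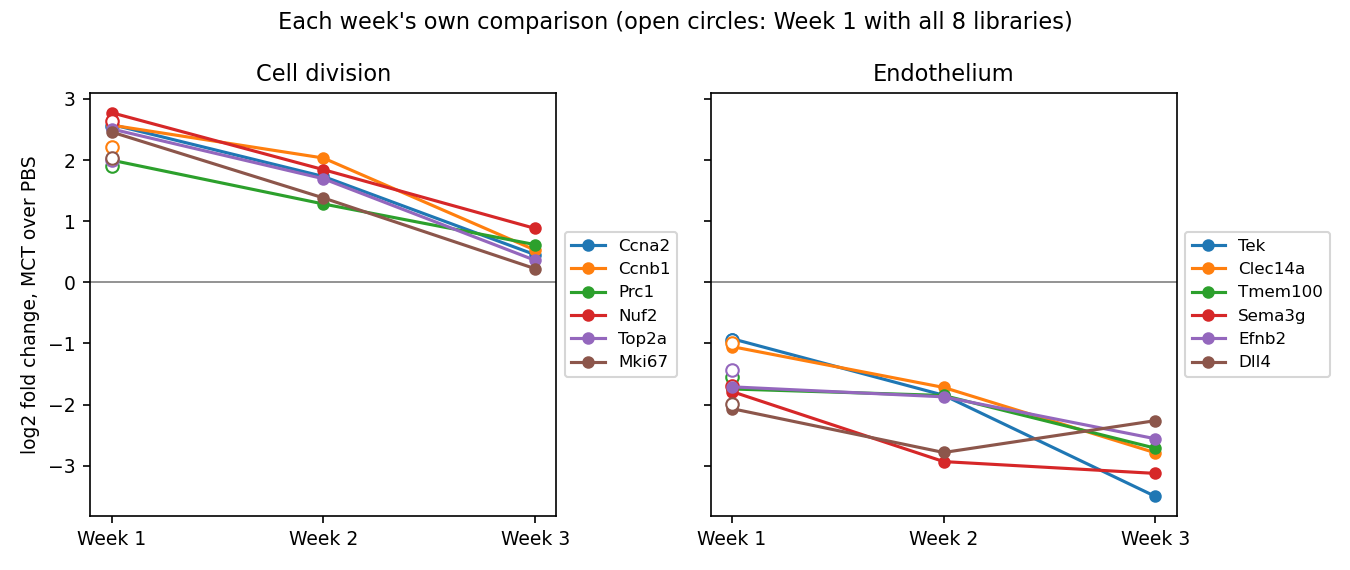
Log2 fold change, MCT over PBS, in Weeks 1, 2 and 3 (each against the PBS lungs of its own week) for 6 genes of cell division (left) and 6 of the endothelium (right); open circles are Week 1 with all 8 libraries and filled circles in Week 1 are without PBS replicates 1 and 3. Ccna2 is at 2.56 in Week 1 and 0.45 in Week 3, and Tek at -0.94 and -3.50.

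Genes of macrophages and matrix lay on the lower side in part, and interferon-stimulated genes on the higher. Over all genes tested, named or not, 1.87% were lower and 2.51% higher with 24 libraries, and 10.3% and 12.5% without the pair. Of 24 macrophage genes, 4 had a lower log2 fold change in Week 1 than in Week 3 with 24 libraries and 9 without the pair, with 0 higher in both. Of 40 matrix genes 6 were lower and 1 higher (12 and 2 without the pair). Ccl2 was at 1.34, 3.34 and 3.42 in Weeks 1, 2 and 3, with a difference between Weeks 1 and 3 of -2.10, adjusted p = 0.036 with 24 libraries and 0.058 without the pair. Of 28 interferon-stimulated genes 8 were higher in Week 1 and 0 lower (15 and 0 without the pair), with medians of -0.40 in Week 1, -0.13 in Week 2 and -1.57 in Week 3. Of 20 red cell genes 4 were lower in Week 1 and 0 higher (6 and 1 without the pair), with medians of -2.15 in Week 1, -0.75 in Week 2 and -0.20 in Week 3. Tmcc2, the 1 red cell gene called with all 8 libraries, did not follow these medians. It was at -1.65, -1.77 and -1.78 in the same order. Its difference between Weeks 1 and 3 did not pass (0.12, adjusted p = 0.8 with 24 libraries and 0.87 without the pair).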

How the data were processed

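Lung RNA of 24 rats was measured, of which the 8 of Week 1 were compared here and the other 16 served for the tests between weeks. Per the labels and the study's methods, the authors prepared directional poly-A libraries, aligned reads with HISAT2 2.0.5 to the rat assembly Rnor_6.0 and counted them per gene with featureCounts 2.0.3. The strand setting, the annotation release and the treatment of reads with several alignments are not given in the sources used here. The deposited values are raw counts per gene, not normalized. The study itself tested with DESeq2 1.32.0.

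Here edgeR 4.0.16 (R 4.3.3) was run on the deposited counts with its filter on low counts, TMM scaling and the quasi-likelihood test. P-values were adjusted after Benjamini and Hochberg over all genes tested. Calls needed more than a 1.5-fold difference and an adjusted p under 0.05, except between weeks, where the fold was not used. CPM values use TMM-scaled totals. Fits were repeated without PBS replicates 1 and 3, with other scalings and filters, DESeq2 1.42.0, limma-voom 3.58.1 with library quality weights, a replicate block and each library left out. The scripts were tested on simulated counts. Symbols came from the study's supplementary gene table, so Pcna, Acta2 and Pecam1 were not analysed here, and some results are not reported here. Promoter windows came from RefSeq (GRCr8), and 2596 of 3275 named genes matched.

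Genes were named by a rule: all calls with 8 libraries, the 15 largest and 15 smallest fold changes among separated named genes called without the pair and at 5 CPM or more in the higher group, at most 6 members per list with at least 5 CPM by the size of their change, and genes the study measured by other methods. The members, lists and rule were chosen with earlier results of these data known. The depth was 19804731 to 32835200 counts per library, and intervals for shares were not computed, since each group had replicates. Whether same-numbered MCT and PBS libraries pair was not settled: their deviations correlated at 0.29, -0.13, 0.17 and 0.014.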

Additional observations from a re-analysis of the deposited data

Results flagged for a closer look

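In 232 groups of 4 libraries, 1 library stood apart from the other 3 in 32. Chance gives about 1 in 20 for independent, normally distributed values. The genes here were measured in the same rats and are not independent, so the 32 cannot be set against that rate. The number after each item is its distance to the nearest other library as a share of the group's range. PBS replicate 3 stood apart, above the other controls, for the cell division genes Diaph3 (0.848), Rrm2 (0.88), Esco2 (0.965), Knl1 (0.944), Cenpe (0.847), Kif11 (0.877), Racgap1 (0.957), Melk (0.932), Tyms (0.876), Top2a (0.91) and Cdc25c (0.836), and for the red cell gene Alas2 (0.85). PBS replicate 1 stood apart, also above, for Hpgd (0.892), Chi3l1 (0.909), Hbb (0.848), Rps21 (0.896), Cox17 (0.869) and Sftpa1 (0.851), and for the summed markers of macrophages (0.856) and neutrophils (0.845). PBS replicate 2 did so for Cdt1 (0.871) and the fibroblast sum (0.864).

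MCT replicate 2 was above the other MCT lungs for Diaph3 (0.887), Rrm2 (0.848), LOC100359539 (0.85), Racgap1 (0.883), Dll4 (0.866), Tek (0.881) and Kit (0.862) and for the endothelial sum (0.843), and below them for total counts (0.881) and the platelet sum (0.831).

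The difference between MCT and PBS was larger in Week 1 than in Week 3, in the signed log2 sense, for 432 genes and smaller for 322, by the test of the difference itself with all 24 libraries. Among 95 of the genes named, 35 differed. The log2 difference, Week 1 minus Week 3, was positive for these genes of cell division and the p53 response: Nuf2 1.74, Pbk 1.75, Depdc1 2.71, Ccna2 2.10, Ccnb1 1.68, Prc1 1.27, Mybl1 2.27, Diaph3 1.84, Shcbp1 1.57, Esco2 2.48, Pclaf 2.44, Anln 1.97, Kif11 1.78, Ndc80 2.23, Hmmr 1.92, Kif2c 1.94, Espl1 1.19, Uhrf1 1.95, Cdt1 1.12, Brca1 1.64, Rad18 1.41, Mdm2 1.22, Top2a 1.62 and Mki67 1.79. Among genes of vessels it was 1.16 for Tmem100, 1.42 for Sema3g, 1.11 for Efnb2, 1.79 for Clec14a, 2.55 for Tek and 1.58 for Vegfc. It was 1.88 for Hpgd, 2.22 for Kcnk2 and 0.74 for Asns, and negative for Ccl2 (-2.10) and Ahsp (-3.79), a globin chaperone.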

How the results depend on the processing

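The numbers of genes called higher and lower in Week 1 (11 and 3 with all 8 libraries) moved with most choices. They were 254 and 84 without PBS replicates 1 and 3, 41 and 13 with at least 10 counts in every library, 169 and 94 with DESeq2, 98 and 44 with limma-voom (library quality weights, also below), 372 and 181 with the spread taken from all 24 libraries, 649 and 380 with DESeq2 without the pair, 45 and 23 with limma-voom without the pair, and 429 and 314 at an unadjusted p. Library totals gave 13 and 1. RLE size factors (8 and 3), no filter (11 and 2), robust dispersion (11 and 2) and no fold threshold (11 and 3) stayed within 1.5 times. Leaving out single libraries gave 0 to 130 higher and 0 to 34 lower. The cause of these moves was not tested.

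Between Weeks 1 and 2 (0 and 0), DESeq2 gave 11 and 28, an unadjusted p 394 and 506, and single libraries left out 0 to 6 and 0 to 2. Between Weeks 1 and 3 (432 and 322) the numbers were 2241 and 1845 without the pair, 355 and 422 with RLE size factors, 457 and 660 with at least 10 counts in every library, 734 and 1030 with DESeq2, 929 and 440 with limma-voom, 1829 and 1772 at an unadjusted p, and 225 to 2336 and 104 to 2419 with single libraries left out.

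With the replicate block, Week 1 gave 0 higher and 0 lower genes and the median log2 fold change of all genes was 0.17, against -0.043 without it. MCT replicates 1 and 3 correlated best with the PBS library of their own number and replicates 2 and 4 did not, which does not settle whether same-numbered libraries pair.

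Of 95 genes recomputed under these alternatives, 3 changed sign, none of them called. Rps21 was at 0.021 with limma-voom without the pair and -2.02 to 0.38 with single libraries left out, Scgb1a1 at 0.043 with the replicate block and -0.59 to 0.19 with single libraries left out, and Bmpr2 at 0.18 with limma-voom without the pair and -1.07 to 0.30 with single libraries left out. The 21 sums and shares with permutation values were recomputed without the pair and without each library in turn, alternatives chosen after seeing the data. Of these, 15 kept their direction throughout, among them haemoglobin and the red cell, mast cell, alveolar type 1, endothelial and macrophage sums. The difference MCT minus PBS changed sign for the mitochondrial share (-0.353 points without the pair, -0.014 to 1.105 with single libraries left out) and, with single libraries left out, for the summed CPM of club and goblet cells (-4056 to 712.1), neutrophils (-12.01 to 223.6), B cells (-1.478 to 55.43), mesothelium (-14.25 to 4.189) and heart and skeletal muscle (-6.521 to 16.35). Without the pair the smallest p that 4 against 2 allows is 0.067. With 2 sound controls at most, sizes of change without the pair rest on PBS replicates 2 and 4. Those with all libraries use the 4 PBS lungs, the shallow pair included.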
